A study of Mus musculus with 2 samples.

Results

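Caveolae are small flask-shaped pits of the plasma membrane that are abundant in endothelial cells, smooth muscle cells, fibroblasts and adipocytes. Caveolin proteins in the membrane are joined there by a coat of cavin proteins on the cytoplasmic side, and an EHD ATPase gathers at the neck of the pit. Caveolae buffer membrane tension and hold signalling proteins, and they are a familiar feature of the vessel wall. A set of 3 genes of this coat was examined here in 2 mouse mesoangioblast clones. Cavin2 encodes a cavin that binds phosphatidylserine and helps to shape the caveolar membrane. Cavin3 encodes a cavin first known as a binding protein of protein kinase C delta. Ehd2 encodes the ATPase of the caveolar neck, which holds caveolae at the cell surface.

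The members were all probe sets that the platform annotation gives to the single gene Cavin2, Cavin3 or Ehd2. There were 3, 1 for each gene, among 11868 probe sets left after 66 control probe sets had been set aside. They stand for 3 of 5928 named genes. Total RNA of clone D351 and of clone D16 was measured on 1 Affymetrix murine U74 C array each, and a probe set is a group of short probes summarised into a single intensity. Mesoangioblasts are vessel-associated mesodermal progenitors. Both clones came from the dorsal aorta of C57BL6 embryos at embryonic day 9.5, were cloned at limiting dilution over Mitomycin C-treated embryonic fibroblasts, and were then expanded on gelatin. No treatment separates the groups, and each is a single clone on a single array, so clone, culture and array cannot be told apart.

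No difference below has a replicate check, and none was tested. The median intensity was 6.2 in D351 and 6.5 in D16. A floor was set at the median of all values, 6.4. Values that do not exceed it are called dim and were set to the floor for log2, and a probe set counts as measured where at least 1 clone exceeds it. On this basis 5832 probe sets were above the floor in D351 and 5956 in D16. As a guide to background, 38 values of 19 negative control probe sets, which target transcripts of bacteria and yeast, ran from 0.3 to 11.2. Log2 ratios are given as D351 minus D16, and differences are described by a fixed size of 2-fold.

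Of the 3 genes, 0 differed by 2-fold between the clones. Ehd2 and Cavin2 were bright in both clones and nearly equal, and Cavin3 was close to background in both. Across the whole array, 19.5% of 6828 measured probe sets passed 2-fold in either direction, so 0 of 3 is not far from the background share and says nothing particular about caveolar genes. With scaling to the hybridization controls the ratios of Ehd2 and Cavin2 moved towards D351 but stayed under 2-fold, as given below.

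Ehd2, read by probe set 166065_f_at, had an intensity of 1414.5 in D351 and 1449.9 in D16. These values were 126 and 129 times the highest negative control value of 11.2, and both exceeded 99.9% of the probe sets on each array. D16 was 1.02-fold brighter, a log2 ratio of -0.04. Scaled to the hybridization controls the ratio was 0.64, and the sign also turned with quantile normalization (0.18) and lowess centring (0.17).

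Cavin2, read by probe set 167384_s_at, had an intensity of 294.6 in D351 and 323.8 in D16. Both values exceeded 98.2% of the probe sets of their array and were 26.3 and 28.9 times the highest negative control value. D16 was 1.10-fold brighter, a log2 ratio of -0.14, which was 0.54 when both arrays were scaled to the hybridization controls. Probe sets hybridise with different efficiency, so the brighter signal of Ehd2 does not show that its RNA is more abundant than that of Cavin2.

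Cavin3, read by probe set 170793_at, was dim in D351 at 4.4 and just above the floor in D16 at 7.4. Of the 38 negative control values, 11 were at or above the D351 value and 3 at or above the D16 value. The lower bound of the difference was 1.16-fold towards D16 (log2 ratio -0.21), and the ratio of the values as deposited was 1.68-fold. With the floor at 20.7, the 75th percentile, or with scaling to the hybridization controls, the gene was dim in both clones. The array therefore gives no level for Cavin3 beyond a bound, and whether the clones differ in it was not detectable.

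**Figure D1:**
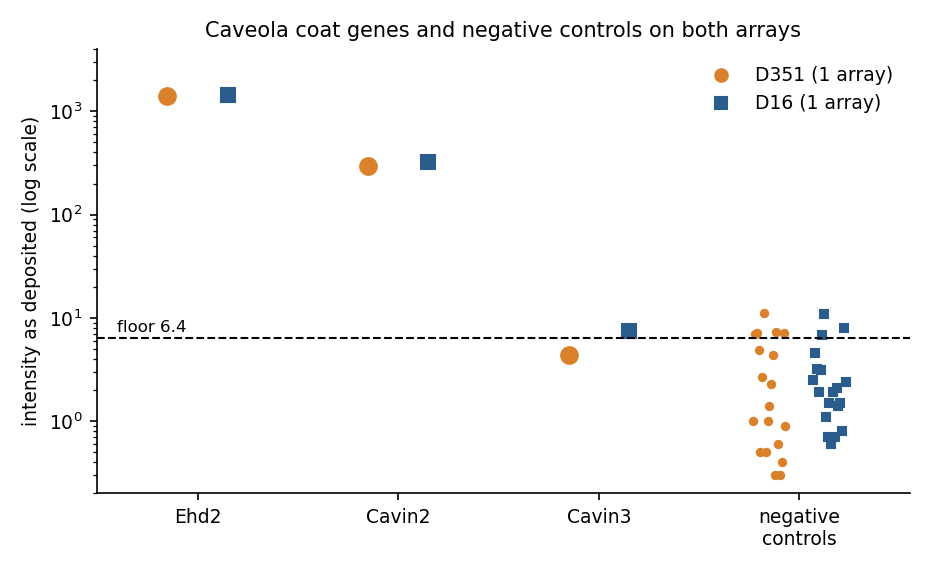
Intensity as deposited (log axis) of the Ehd2, Cavin2 and Cavin3 probe sets and of 19 negative control probe sets, on the D351 array (circles, left of each pair) and the D16 array (squares, right); each point is 1 probe set on 1 array and the dashed line is the floor of 6.4. Ehd2 (1414.5 in D351 and 1449.9 in D16) and Cavin2 (294.6 and 323.8) stand clear of the controls, and Cavin3 (4.4 and 7.4) lies among them.

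The scatter of ratios between probe sets of the same gene was read from genes with more than 1 probe set. For 409 genes, 2 or more probe sets were measured in both clones, and the log2 ratios of their 2 brightest scattered around each other with an SD of 0.67 for a single probe set. For 20 genes with 2 probe sets above 100 in both clones this SD was 0.20, although such pairs may be built on overlapping sequence. The ratios of Ehd2 (-0.04) and Cavin2 (-0.14) were smaller than both. These SDs describe probe sets on the same arrays and not repeated arrays or cultures. An error common to a whole array does not enter them. A difference between the clones of that order therefore cannot be seen or denied here.

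The ratios of both bright members were small beside probe sets of like brightness. Of 20 probe sets within 0.5 log2 of the mean intensity of Ehd2, 1 passed 2-fold, and their median absolute log2 ratio was 0.64. Of 173 probe sets within 0.5 log2 of Cavin2, 38 passed 2-fold, 14 towards D351 and 24 towards D16, with a median absolute log2 ratio of 0.48. The ratio of Ehd2 exceeded in size that of 5.0% of its set, and the ratio of Cavin2 that of 19.7% of its set.

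**Figure D2:**
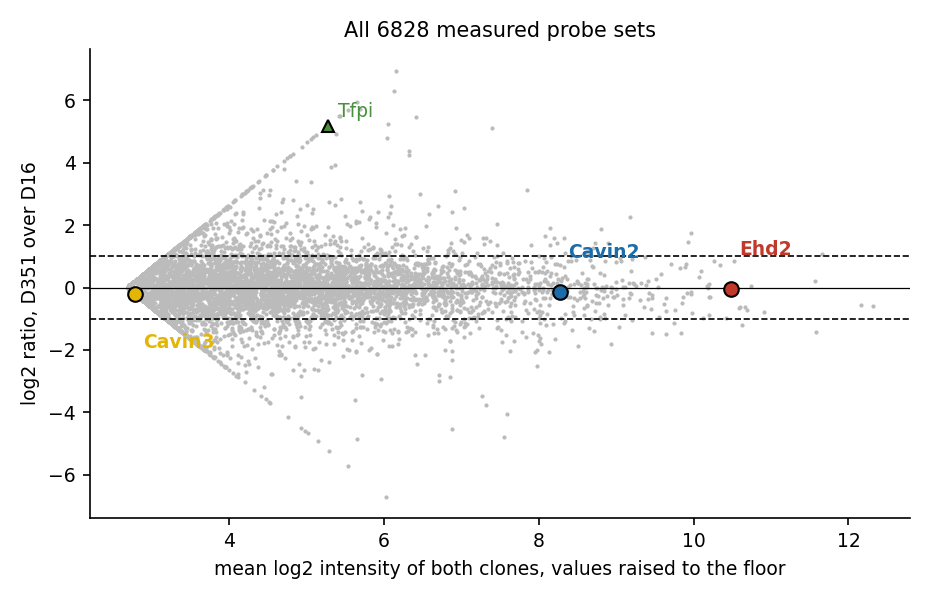
Log2 ratio of D351 over D16 against mean log2 intensity for all 6828 measured probe sets (grey points), with Ehd2, Cavin2 and Cavin3 as large circles, Tfpi as a triangle and dashed lines at 2-fold. Ehd2 (-0.04) and Cavin2 (-0.14) lie near 0 at high intensity, Cavin3 (-0.21, a bound) at the floor, and Tfpi at a bound of 5.19.

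The identifiers of the bright members carry marks. The letter f denotes a probe set whose probes match several related sequences, and the letter s one whose probes are shared between transcripts. Probe sets with f made up 9.19% of the array but 15 of the 20 with an intensity above 1000 in both clones, while 1 of these 20 had no mark. Of the 20 probe sets within 0.5 log2 of Ehd2 in brightness, 15 carried f. Whether other transcripts, such as those of paralogues, add to the signals of Ehd2 and Cavin2 was not tested. Cavin3 alone was read by a probe set without a mark.

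Among genes above the floor in both clones, those known only by a locus name were passed over, which left 2786 to compare. The genes closest to each bright member in both intensities were found over the 2 arrays, by distance between the pairs of log2 values. For Cavin2 these were Otud6b, a deubiquitinase gene (287.1 in D351 and 315.8 in D16), Patl1, of mRNA decay, the replication gene Gins1, the phosphatase gene Mtmr4 and Gask1b, at distances of 0.05 to 0.15 log2. For Ehd2 they were Polr2e, a subunit of RNA polymerase II (1743.4 in D351 and 1668.1 in D16), Glipr2, the mitochondrial fission gene Fis1, Micu2, of mitochondrial calcium uptake, and Spr, of tetrahydrobiopterin synthesis, at 0.36 to 0.45 log2. All 5 genes near Ehd2 were read by probe sets with f. A match over 2 arrays shows like brightness and little else.

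Along the chromosomes, Cckbr, the gene next to Cavin3 on chromosome 7 in the RefSeq gene order, had an intensity of 459.7 in D351 and 255.0 in D16, a log2 ratio of 0.85. On the other side of Cavin3, beyond 4 genes without a measured probe set, Hpx stood at 15.8 in D351 and was dim in D16. Ehd2 lies elsewhere on chromosome 7. Its nearest measured genes were Napa, beyond 4 genes, with a log2 ratio of -0.05, and Zswim9, beyond 97 genes, with 0.42. Around Cavin2 on chromosome 1 the nearest were Slc39a10 (0.17) and 1700019A02Rik (-0.12), with 23 and 32 genes between.

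The start regions of the 2 bright genes are shown, since Cavin3 had no entry among the start regions used. Each sequence is the 250 bases before the annotated start in RefSeq, build GRCm38.p6, read 5′ to 3′ on the strand of the gene, and the table held 2 of the 3 members. Capitals mark matches, on either strand, to the GC box (GGGCGG), to the E-box (CANNTG) or to the CCAAT box. The Cavin2 window is chr1:51288876-51289125 on the plus strand, and the Ehd2 window is chr7:15967536-15967785 on the minus strand.
Cavin2: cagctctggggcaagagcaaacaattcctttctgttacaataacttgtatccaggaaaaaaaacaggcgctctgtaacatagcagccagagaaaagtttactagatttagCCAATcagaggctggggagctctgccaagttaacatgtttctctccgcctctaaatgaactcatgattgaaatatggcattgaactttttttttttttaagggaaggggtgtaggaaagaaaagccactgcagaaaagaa
Ehd2: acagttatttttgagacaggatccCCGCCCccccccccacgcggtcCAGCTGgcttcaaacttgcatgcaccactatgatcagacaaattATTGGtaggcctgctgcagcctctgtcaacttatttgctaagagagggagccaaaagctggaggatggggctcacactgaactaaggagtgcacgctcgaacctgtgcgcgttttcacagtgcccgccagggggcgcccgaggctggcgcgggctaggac

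The Cavin2 window had a GC content of 40.4% with 2 CpG dinucleotides, and the Ehd2 window 58.0% with 12, against a median GC content of 52.4% over 32851 windows of the same length. Cavin2 had 1 match, to CCAAT, which 33.8% of all windows hold. Ehd2 had 1 match each to CCAAT, to GGGCGG (32.7% of windows) and to CANNTG (66.2%), and these did not overlap. Neither window held TATAAA (12.4% of windows), GGAATG (12.6%), a motif of TEAD factors, or a CArG box (1.47%), the site of serum response factor in smooth muscle genes. The search for CCAAT was added after the sequences had been seen. A match is a stretch of letters and not a binding site, and the arrays do not bear on it.

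A list of 18 genes of caveolae and their partners had 4 genes on the array, all measured and 3 of them the members, and the other 14, among them Cav1 and Cavin1, were not analysed here. Of the 4, 1 passed 2-fold towards D351 and 0 towards D16, against 10.3% and 10.2% of 3934 measured genes. The median log2 ratio was -0.09 for the list and -0.02 for all measured genes. The gene past 2-fold was Tfpi, the tissue factor pathway inhibitor, part of which resides in caveolae of endothelial cells. It had an intensity of 233.7 in D351 and 2.4 in D16, a bound of at least 36.5-fold towards D351 and, with the floor at 20.7, of at least 11.3-fold, while a second probe set, with a mark, was dim in both clones (1.2 and 1.8).

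Partners of the EHD proteins in membrane recycling showed no ratio or bound past 2-fold. Of 24 listed genes, 8 were on the array and 7 measured, Ehd2 among them, with a median log2 ratio of -0.04. Of these 7, 0 passed 2-fold in either direction, against 10.3% of all measured genes towards D351 and 10.2% towards D16. With so few genes, 0 is not far from that share. Ehbp1l1, which encodes an EHD-binding protein, had an intensity of 196.1 in D351 and 173.0 in D16. Rab11fip5, an effector of Rab11 on recycling endosomes, stood at 190.9 in D351 and 211.4 in D16, and the GTPase gene Rab8a at 38.3 in D351 and 43.8 in D16. Rab11a, the recycling endosome GTPase, came nearest to 2-fold, with 93.4 in D351 and 49.9 in D16, 1.87-fold higher in D351. Rab11b stood at 9.4 in D351 and was dim in D16. Snap29, a SNARE gene, was dim in D351 and stood at 10.3 in D16. For these genes the ratio is only a bound and may be larger, but both readings lie within the negative control range, which reached 11.2. A second probe set of Rab11b was dim in both clones (5.6 in each). Scaled to the hybridization controls, Rab11a passed 2-fold and the list median became 0.64, with 0.58 for all genes.

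Protein kinase C genes bear on the cavins because Cavin2 and Cavin3 bind these kinases. Of 20 listed, 6 were on the array and 4 measured, with a median log2 ratio of 0.08. Of these 4, 0 passed 2-fold towards D351 and 1 towards D16, against 10.3% and 10.2% of all measured genes. Prkcd, the kinase that Cavin3 binds, had an intensity of 126.5 in D351 and 118.4 in D16. Prkd1, protein kinase D1, was 2.29-fold higher in D16 by a probe set with a mark (180.3 in D351 and 412.9 in D16), and was the only gene of the list past 2-fold. Scaled to the hybridization controls, 0 passed.

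The clathrin coat, the other main route of pit formation, is given for comparison. Of 13 measured genes of 40 listed, 2 passed 2-fold towards D351 and 3 towards D16, against 10.3% and 10.2% of all measured genes, and the median was 0.07. These were Dnm3, of the dynamins (23.6 in D351 and 9.3 in D16), and Amph (13.4 in D351 and dim in D16), and on the other side Ston1 (7.0 in D351 and 15.2 in D16), Hip1 (12.3 and 26.5) and Necap2 (7.1 and 14.9). With the floor at 20.7, 0 of the measured genes of the list passed in either direction. Scaled to the hybridization controls, 4 were higher in D351 and 0 in D16.

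A list of 26 genes of flotillins, sphingolipids and cholesterol had 6 on the array, with no flotillin gene among them. Sphingolipids and cholesterol are lipids on which caveolae depend. Of 4 measured genes, 2 passed 2-fold towards D351 and 0 towards D16, against 10.3% and 10.2% of all measured genes, and the median was 1.13. Scaled to the hybridization controls, 3 of the 4 passed towards D351, with a median of 1.80 and 0.58 for all genes. Cers6, a ceramide synthase gene, had an intensity of 382.1 in D351 and 148.9 in D16, 2.57-fold higher in D351. Stoml1, of the stomatin family, was 2.83-fold higher in D351, at 69.3 in D351 and 24.5 in D16. Npc2, which carries cholesterol out of lysosomes, stood at 45.6 in D351 and 57.2 in D16.

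**Figure D3:**
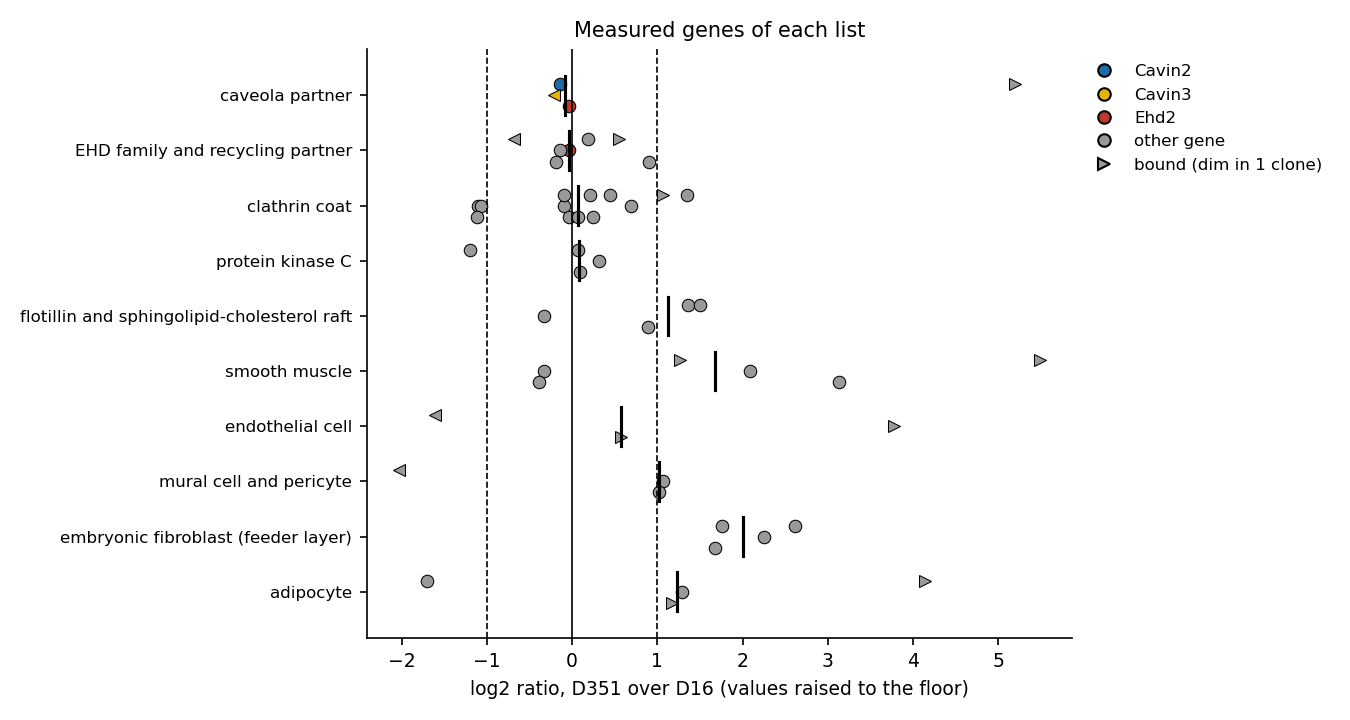
Log2 ratio of D351 over D16 for the measured genes of each list except the blood cell list, by brightest probe set. Circles are ratios above the floor in both clones, and triangles are bounds that point towards larger differences. Black bars are list medians and dashed lines mark 2-fold. Tfpi is the only symbol of the caveola and EHD lists beyond 2-fold, with Rab11a at 0.90 and the bounds of Rab11b at 0.55 and Snap29 at -0.69, while the medians of the smooth muscle (1.68) and embryonic fibroblast (2.00) lists lie above 1.

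Some markers of the cell types that carry caveolae passed 2-fold between the clones, not all in the same direction, while Ehd2 and Cavin2 did not. In bulk RNA, fewer cells of a type and less RNA per cell cannot be told apart. Of 6 measured smooth muscle genes of 23 listed, 4 passed 2-fold towards D351 and 0 towards D16, against 10.3% and 10.2% of all measured genes. Their median log2 ratio was 1.68, with a summed intensity of 1125.6 in D351 and 158.5 in D16. Those past 2-fold were Lmod1 (at least 45.0-fold), Itga8 (8.74-fold), Synpo2 (4.26-fold) and the smooth muscle actin gene Acta2, which read only 15.4 in D351 and was dim in D16. The other measured genes lay slightly towards D16, Tpm1 with 10.2 in D351 and 13.4 in D16 and Csrp1 with 28.3 and 35.5. Myocd, the smooth muscle coactivator, was dim in both clones (4.1 and 1.9). All 4 measured embryonic fibroblast genes of 17 listed, the cell type of the feeder layer, passed 2-fold towards D351. Their median log2 ratio was 2.00, with a sum of 2355.2 in D351 and 653.8 in D16. Most of this sum was Col5a1 (1838.3 in D351 and 543.2 in D16). Mfap5 led with 6.14-fold, followed by Fgf10 (4.76-fold) and Col5a1 (3.38-fold, by a probe set with f), while Col5a2 was dim in both clones. A second probe set of Fgf10 read 28.6 in D351 and 17.9 in D16, 1.60-fold towards D351. Those of Mfap5 (2.0 and 2.4) and Col5a1 (2.1 and 1.1) were dim in both clones. At a floor of 20.7, 3 of 4 measured smooth muscle genes and all 4 fibroblast genes still passed 2-fold, with the bound of Lmod1 at 13.9-fold and Acta2 dim in both clones.

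Of 3 measured endothelial genes of 22 listed, Flt1 (at least 13.7-fold) lay towards D351 and Egfl7 (at least 3.05-fold) towards D16. The list sum was 100.9 in D351, mostly Flt1 (87.6), and 22.4 in D16, mostly Egfl7 (19.5). Of all measured genes, 10.3% passed 2-fold towards D351 and 10.2% towards D16, the background share for the mural cell and adipocyte lists too. With the floor at 20.7, the bound of Flt1 was 4.23-fold and Egfl7 was dim in both clones. A second probe set of Egfl7, with a mark, was dim in both clones at either floor (3.3 in D351 and 2.3 in D16). Kdr, the main VEGF receptor gene, read 9.5 in D351 and was dim in D16, and Mmrn2, Sox17 and Sox18 were dim in both. Of 3 mural cell genes of 13 listed, Rgs4 (2.03-fold) and Bgn (2.09-fold) lay towards D351 and Angpt1 (at least 4.09-fold) towards D16, with a sum of 4698.0 in D351 and 2271.3 in D16. Nearly all of this sum was Bgn (4679.7 in D351 and 2238.3 in D16, by a probe set with f), and with the floor at 20.7 only Bgn still passed 2-fold, Rgs4 being dim in both clones and Angpt1 at a bound of 1.27-fold. Of 4 adipocyte genes of 13 listed, Lpin3 (at least 17.6-fold), Plin4 (2.44-fold) and Plin5 (at least 2.25-fold) lay towards D351 and Ppargc1b (3.26-fold) towards D16, with a sum of 324.6 in D351 and 412.3 in D16, and at a floor of 20.7 the bound of Lpin3 was 5.45-fold and Plin5 was dim on both arrays. The only blood cell gene of 12 listed, Itga2b, read 49.9 in D351 and 38.7 in D16. The part of these cell types in the signal of Ehd2, Cavin2 and Tfpi was not tested, and the array held too few defining markers to name the cells.

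The scale between the arrays sets the sign of ratios as small as those of Ehd2 and Cavin2. The 9 probe sets of the hybridization controls, bacterial and phage transcripts added to every sample, had a median log2 ratio of -0.67, from -0.83 to -0.60. The 6 probe sets for Actb and Gapdh ran from -0.48 to -0.07. Scaled to the hybridization controls, the median log2 ratio of all measured probe sets was 0.57, so that Ehd2 at 0.64 and Cavin2 at 0.54 again lay close to it. Under 8 alternatives each, Ehd2 ranged from -0.04 to 0.64 and Cavin2 from -0.14 to 0.54. Under 7, Cavin3 ranged from -0.75, with the floor at the 25th percentile, to -0.19. Some alternatives could not move a ratio. Ehd2 and Cavin2 lie well above the other floors, and the mean over probe sets changes no member, each having a single probe set. The limit to probe sets without a mark could not move Cavin3 either.

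**Figure D4:**
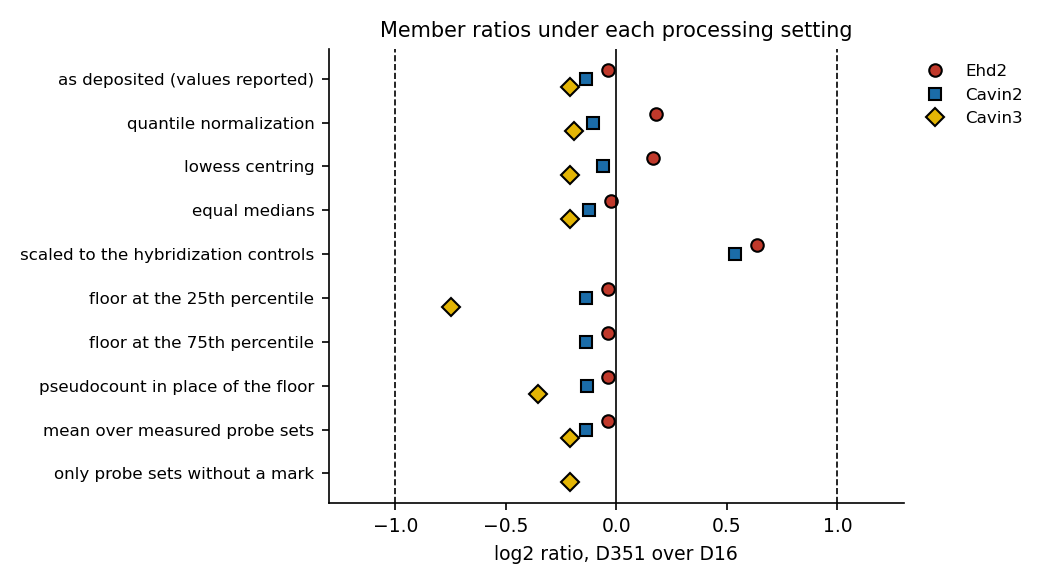
Log2 ratio of D351 over D16 for Ehd2 (circles), Cavin2 (squares) and Cavin3 (diamonds) with the arrays as deposited and under each alternative setting; dashed lines mark 2-fold and a missing symbol means that the gene had no measured probe set there. Every value shown lies within 2-fold, and Ehd2 (0.64) and Cavin2 (0.54) are highest when scaled to the hybridization controls.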

How the data were processed

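The authors deposited linear intensities, 1 for each probe set on each array, and these were used as given. The software that made them is not given in the sources used here. Detection calls were not used here. Trimmed means, without 2% of values at either end, came to 20.01 for each array, which scaling to a shared target would give. The members, gene lists, floor and naming rule were chosen with earlier results of these data known. The platform annotation named a single gene for 7717 probe sets, several for 150 and none for 4001. Of the 7717, 7677 matched the RefSeq gene table (GRCm38.p6) by gene identifier. Where a gene had several probe sets, that of the highest mean floored log2 value stood for it. Named were all members, every measured gene of the caveola and EHD lists, and from other lists up to 3 genes past 2-fold either way, or otherwise the 2 brightest; further list genes were named after their values were seen. The rule also took the 5 genes nearest to each bright member and the nearest measured gene on each side of each member. No test was made, since 1 array per clone leaves no replicate and no measure of spread between arrays. Alternatives were quantile normalization, lowess centring (span 0.3), equal medians, scaling of both arrays to the hybridization controls, other floors, a pseudocount, a 3-fold rule, probe sets without a mark and the mean over probe sets. The steps were tested on simulated arrays, with known changes only in probe sets well above the floor. This does not cover dim genes such as Cavin3, and no minimum recovery of the changes was required of quantile normalization. Software was Python 3.11.15, with pandas 2.3.3 and numpy 2.4.6 for tables, scipy 1.17.1 and statsmodels 0.14.6 for trimming and lowess, and matplotlib 3.10.9 for figures.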

Additional observations from a re-analysis of the deposited data

How the results depend on the processing

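The ratios of Ehd2, Cavin2 and Cavin3 stayed within 2-fold under every alternative that gave a value. The other floors could not change Ehd2 or Cavin2, and the mean over probe sets could change no member, so these are not checks. The sign of Ehd2 (-0.04) turned to 0.18 with quantile normalization, 0.17 with lowess centring and 0.64 with scaling to the hybridization controls, which also turned Cavin2 (-0.14) to 0.54. The shifts with scaling to the hybridization controls are about as large as the SD of 0.67 between probe sets of a gene, and those of Ehd2 with the other methods about as large as the 0.20 found for bright pairs. Cavin3 had no value with the floor at the 75th percentile or with that scaling, and Ehd2 and Cavin2 had none with probe sets without a mark. The caveola list kept 1 gene higher in D351 and 0 in D16 throughout, as counts. The gene was Tfpi, read by the same probe set each time. Its dim second probe set enters neither the mean over probe sets nor the limit to probe sets without a mark. Those settings could not move Tfpi and are not checks of it. The 1331 probe sets past 2-fold became 2041 with scaling to the hybridization controls, 3189 with the floor at the 25th percentile, 521 at the 75th, 838 over probe sets without a mark and 496 at 3-fold; the floor, the smaller set and the stricter fold give the last 4 by construction. With that scaling 1808 of the calls were towards D351 and 233 towards D16 (88.6% towards D351), where the deposited scale gave 665 and 666. No paired analysis was possible because each clone has 1 array. The low signal over background limits what can be said of Cavin3.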
